A study of Mus musculus with 44 samples.

Results

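Among the transcripts that were far higher in spermatocytes than in round spermatids of wild-type mice, 10 genes are described here: Chst1, Septin12, Gm5878, Abitram, Pkd2l1, Exoc8, Elfn2, Mark2, Sap30 and 4930488B01Rik. They were picked from among the clearest wild-type differences, so the wild-type values below describe the choice and carry no test. Every probe annotated to them was taken, which gave 12 of the 45281 probes on the array, with 2 probes each for Abitram and Mark2 and 1 for each other gene. All 12 were among the 22605 probes kept by a filter on dim signals, and the 10 genes were among 12260 with a kept probe. A probe that is bright in spermatocytes passes such a filter through that group alone.

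RNA was measured on 44 Illumina mouse BeadChip arrays of spermatocytes, the germ cells in meiosis, and round spermatids, the haploid cells that follow, from testes of adult mice. Experiment 1 held wild-type mice and Th2b+/tag mice, in which the histone TH2B carried His, Flag and HA tags at its C terminus, with 6 arrays per combination of genotype and cell type. Experiment 2 held wild-type mice and mice called kd, which the submitters state made no TH2B, and had 5 arrays per combination. One label field for genotype reads brdt, another gene, so genotypes were taken from sample titles and the design text. Neither the purification of the cells nor the means by which TH2B was removed in kd mice is stated in the sources used here. Replicates are called biological in the labels, without saying which arrays came from which animals, so p-values measure the spread between these arrays.

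Spermatocytes transcribe a broad set of testis genes under regulators that include A-MYB (Mybl1), and round spermatids then turn to a postmeiotic set under regulators that include CREM and RFX2. TH2B is a testis-specific H2B variant, present in chromatin from meiosis onward until protamines replace histones. RNA levels alone do not show whether a transcript that is scarce after meiosis has stopped being made or has been degraded.

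The 10 genes have unrelated known roles. Chst1 encodes a sulfotransferase that adds sulfate to galactose in keratan sulfate, and Mark2 encodes a Par-1 family kinase of cell polarity and microtubule dynamics. Septin12 encodes a testis-enriched septin of the sperm annulus, a ring in the tail, and Exoc8 encodes a subunit of the exocyst, which tethers secretory vesicles to the plasma membrane. Pkd2l1 encodes a polycystin family cation channel, and Elfn2 encodes a leucine-rich repeat membrane protein of synapses. Sap30 encodes a subunit of the Sin3-HDAC corepressor complex, and Abitram encodes an actin-binding protein described in neurons. Gm5878 is annotated as a long noncoding RNA, and 4930488B01Rik is a cDNA name with no gene entry of its own in the annotation used here.

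In the GRCm38.p6 RefSeq annotation, 9 of the genes have positions, all on autosomes. Septin12 lies at chr16:4986858-4997852, Mark2 at chr19:7275396-7341860 and Sap30 at chr8:57482702-57487860. Pkd2l1, at chr19:44147637-44248328, shares a chromosome with Mark2, and Exoc8, at chr8:124890299-124897705, shares one with Sap30. Chst1 lies at chr2:92599632-92615252, Abitram at chr4:56802329-56809605, Elfn2 at chr15:78667333-78718771 and Gm5878 at chr6:85111415-85126094. The annotation lists 4930488B01Rik as a synonym of Pnmal1, at chr7:16949950-16964607, which has another probe on this array.

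Promoter windows of 250 bases before to 50 bases after an annotated start were taken from RefSeq on GRCm38.p6, and 7 of the 10 genes had 9 such windows. They were searched on both strands for the MYB core (AACNG), an RFX half-site (GTTGCC) and a CRE half-site (TGACG), the letters bound by A-MYB, RFX and CREM family proteins. The 3 windows below are shown because the values below turn on these genes: Septin12 had the largest wild-type difference, Sap30 the one that differed most by genotype, and Mark2 has transcripts read by 2 probes. Each is on the minus strand and written from 5′ to 3′, with matches to any of the motifs in capitals.
Septin12 (chr16:4997803-4998102): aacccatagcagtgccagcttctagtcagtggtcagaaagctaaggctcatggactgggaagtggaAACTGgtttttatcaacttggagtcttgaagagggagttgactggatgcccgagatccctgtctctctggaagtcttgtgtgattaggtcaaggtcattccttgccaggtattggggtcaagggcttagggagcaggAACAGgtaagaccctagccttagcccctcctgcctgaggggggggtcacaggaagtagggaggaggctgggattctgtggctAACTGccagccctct
Mark2 (chr19:7341811-7342110): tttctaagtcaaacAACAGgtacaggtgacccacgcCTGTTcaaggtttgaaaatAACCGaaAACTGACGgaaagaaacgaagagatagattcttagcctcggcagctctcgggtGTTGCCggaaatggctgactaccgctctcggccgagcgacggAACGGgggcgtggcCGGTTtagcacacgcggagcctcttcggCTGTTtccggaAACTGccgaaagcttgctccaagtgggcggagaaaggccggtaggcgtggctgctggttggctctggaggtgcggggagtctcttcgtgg
Sap30 (chr8:57487811-57488110): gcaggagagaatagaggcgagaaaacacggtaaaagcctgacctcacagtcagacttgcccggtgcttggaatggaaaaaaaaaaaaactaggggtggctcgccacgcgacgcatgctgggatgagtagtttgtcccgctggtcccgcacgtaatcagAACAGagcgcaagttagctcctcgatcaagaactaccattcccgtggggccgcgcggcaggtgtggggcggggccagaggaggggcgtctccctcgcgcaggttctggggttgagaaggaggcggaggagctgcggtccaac

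The MYB core occurred in 9 of the 9 windows, and in 80.2% of all 32544 mouse windows of the same length, a share close to that background. The Mark2 window shown holds 8 of them, the most of the 9 windows, while the other Mark2 window holds 1. Of all windows 0.18% hold at least 8, which is a share for any single window and not for the highest of 9. In the window shown 1 of the 8 overlaps the CRE half-site, and the RFX half-site stands apart. Septin12 holds 3 MYB cores and Sap30 holds 1. The RFX half-site occurred in 3 windows, of Elfn2 and both Mark2 starts, against 12.4% of all windows, and the CRE half-site in 3 windows, of Abitram, Exoc8 and Mark2, against 20.9%. Septin12 and Chst1 windows were poor in CpG, with observed over expected ratios of 0.05 for Chst1 and the Septin12 window shown and 0.08 for the other Septin12 window. These lie under a level of 0.1 that 13.1% of all windows fall below. Sap30 and the Mark2 window shown had ratios of 0.86 and 1.04, and the other Mark2 window had 0.3. A match describes letters only and does not show that a factor binds.

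Signals are given as log2 of background-corrected, quantile-normalized probe intensity, and differences as spermatids minus spermatocytes on that log2 scale with their standard error. Levels of different probes cannot be set against each other, since probes differ in brightness. In bulk RNA, fewer cells of a type and less RNA per cell cannot be told apart. In wild-type mice of experiments 1 and 2, which chose the genes, Septin12 had the largest difference of all 22605 kept probes, -4.94 and -4.91. Gm5878 (-4.35 and -4.38) ranked 4 and Chst1 (-4.24 and -4.30) ranked 5. Among the 12 probes the smallest difference averaged over both experiments was that of Abitram probe ILMN_1257772, -3.06 and -3.19, at rank 60. Genes that were not chosen lay between these ranks, among them Pou5f2 at rank 2, Klk1b21 at 6, Klk1b27 at 7, Mgll at 9 and Kbtbd6 at 12.

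**Figure D1:**
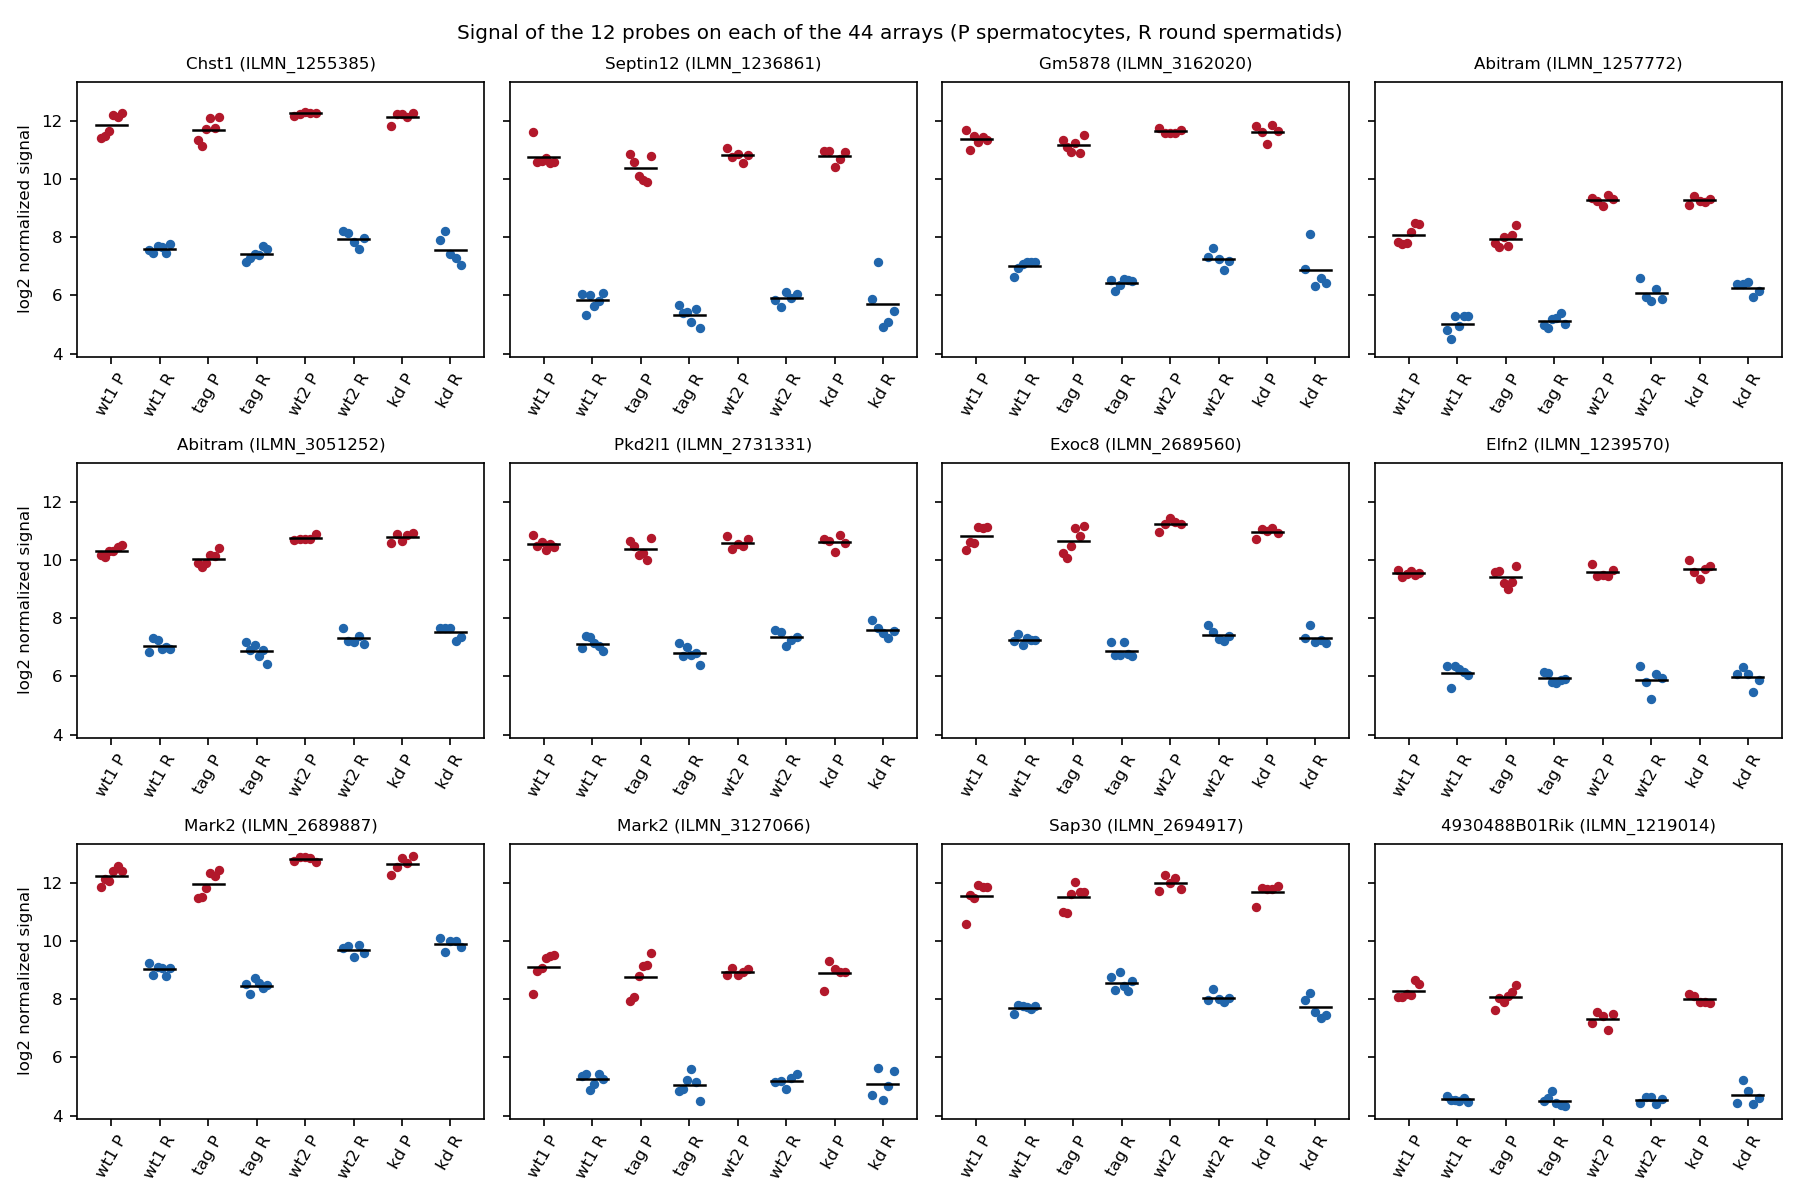
Log2 normalized signal of each of the 12 probes (panels) on each of 44 arrays (points) in 8 groups along the x axis, with group means as bars; wt1 and wt2 are the wild types of experiments 1 and 2, P spermatocytes in red and R round spermatids in blue. In each panel the red points lie above the blue points of the same genotype with no overlap.

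The arrays of tagged and of kd mice took no part in the choice, and in both the 12 probes were again far lower in round spermatids. In tagged mice 12 of 12 probes passed limma's moderated test as lower (adjusted p at most 9.3e-18), where 30.2% of all kept probes did. In kd mice 12 of 12 passed as lower (adjusted p at most 9.2e-17), where 32.9% of all kept probes did. The median difference of the 12 probes was -3.57 in tagged and -3.67 in kd mice, beside medians of -0.01 and -0.04 over all kept probes. A difference of at least 4-fold was reached by all 12 probes in each genotype and by 2.11% and 2.15% of all kept probes. At least 8-fold was reached by 10 of 12 in each, and by 0.38% and 0.389%. Spermatocyte and spermatid arrays did not overlap for any of the 12, where 16.8% and 24.8% of all kept probes were lower without overlap. For 4930488B01Rik these counts rest on a filter passed through spermatocytes, since 0 of 6 tagged and 1 of 5 kd spermatid arrays were above background.

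Septin12 had the largest of the 12 differences in both genotypes on this scale. In tagged mice its signal ran from 9.91 to 10.86 in spermatocytes (median 10.35) and from 4.89 to 5.67 in spermatids (median 5.42), a fall of -5.03 ± 0.23 (SE, n = 6 per group), which left 3.07% of the spermatocyte level. In kd mice the 5 spermatocyte arrays read 10.95, 10.97, 10.41, 10.67 and 10.91, and the 5 spermatid arrays read 5.87, 7.15, 4.93, 5.08 and 5.47. The groups lay 3.25 log2 units apart at their nearest arrays, and spermatid replicate 2 stood highest. The kd difference was -5.08 ± 0.25 (n = 5 per group), or 2.96% of the spermatocyte level. Septin12 was above background on 5 of 6 tagged and 4 of 5 kd spermatid arrays. The depth depended on the scale: with the deposited normalized values Septin12 differed by -3.51 and -3.72, leaving 8.8% and 7.58%, and Gm5878 (tagged, -3.81) and Chst1 (kd, -4.05) had the largest differences. With those values the smallest of the 12 differences were -1.49 and -1.67.

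The enzymes followed. Chst1 read 11.14 to 12.13 (median 11.74) in tagged spermatocytes and 7.14 to 7.71 (median 7.40) in tagged spermatids, a difference of -4.28 ± 0.17. In kd mice Chst1 read 11.81, 12.22, 12.24, 12.13 and 12.25 in spermatocytes and 7.90, 8.20, 7.43, 7.28 and 7.05 in spermatids, a difference of -4.56 ± 0.18. Its spermatid level was 5.16% of the spermatocyte level in tagged mice and 4.24% in kd mice, and Chst1 stayed above background on every array. The 2 Mark2 probes are annotated to different transcript records, and the difference in depth between them was not tested. Probe ILMN_2689887 was above background on every spermatid array, and it differed by -3.49 ± 0.14 in tagged and -2.75 ± 0.15 in kd mice. Probe ILMN_3127066 differed by -3.73 ± 0.22 and -3.80 ± 0.25, and only 3 of 6 tagged and 3 of 5 kd spermatid arrays were above background for it. In alternative processing its loss shrank to as little as -2.19 in tagged and -2.26 in kd mice. Probe ILMN_2689887 stayed between -3.73 and -3.22 in tagged and between -2.85 and -2.49 in kd mice. Which probe fell further thus depended on the processing.

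Gm5878, annotated as a long noncoding RNA, had the next largest difference after Septin12 on this scale. It read 10.88 to 11.50 (median 11.16) in tagged spermatocytes and 6.16 to 6.56 (median 6.51) in tagged spermatids, a difference of -4.72 ± 0.18. In kd mice it read 11.80, 11.60, 11.21, 11.85 and 11.64 in spermatocytes and 6.91, 8.12, 6.34, 6.60 and 6.43 in spermatids, a difference of -4.74 ± 0.19. Spermatid replicate 2 again lay above the other kd spermatid arrays, and still 3.09 below the lowest spermatocyte array.

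Among the genes of membranes and vesicle traffic, Exoc8 ran from 10.05 to 11.15 (median 10.65) in tagged spermatocytes and from 6.71 to 7.19 (median 6.75) in tagged spermatids, and differed by -3.76 ± 0.15. In kd mice Exoc8 differed by -3.63 ± 0.17. Elfn2 differed by -3.45 ± 0.15 in tagged and -3.71 ± 0.17 in kd mice. Pkd2l1 ran from 10.01 to 10.76 (median 10.35) in tagged spermatocytes and from 6.39 to 7.13 (median 6.77) in tagged spermatids, a difference of -3.59 ± 0.13. In kd mice Pkd2l1 read 10.72, 10.66, 10.27, 10.85 and 10.57 in spermatocytes and 7.92, 7.67, 7.51, 7.32 and 7.58 in spermatids, a difference of -3.01 ± 0.15. For Exoc8, Elfn2 and Pkd2l1 the spermatid level was 7.4% to 12.4% of the spermatocyte level in either genotype.

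Sap30, the Sin3-HDAC subunit, lost less in tagged mice than in kd mice. It ran from 10.97 to 12.02 (median 11.65) in tagged spermatocytes and from 8.27 to 8.92 (median 8.53) in tagged spermatids, a difference of -2.93 ± 0.18 that left 13.1% of the level. In kd mice the spermatocyte arrays read 11.18, 11.82, 11.77, 11.78 and 11.88 and the spermatid arrays 7.96, 8.20, 7.58, 7.37 and 7.47, a difference of -3.97 ± 0.20 that left 6.39%. The Abitram probes differed by -2.82 ± 0.15 (ILMN_1257772) and -3.18 ± 0.12 (ILMN_3051252) in tagged mice and by -2.99 ± 0.16 and -3.26 ± 0.13 in kd mice. Their dimmer probe, ILMN_1257772, was above background on 4 of 6 tagged spermatid arrays. Probe 4930488B01Rik was above background on 23 of the 44 arrays, and so passed the filter through spermatocytes. It was above background on none of the 6 tagged spermatid arrays. There it was at least 8.62-fold lower than in spermatocytes (means 4.52 and 8.07). That bound sets each dim array at the lowest signal it could tell from background. In kd mice it was above background on 1 of 5 spermatid arrays, so the measured spermatid mean of 4.71, against 7.99 in spermatocytes, rests mostly on arrays that could not be told from background.

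**Figure D2:**
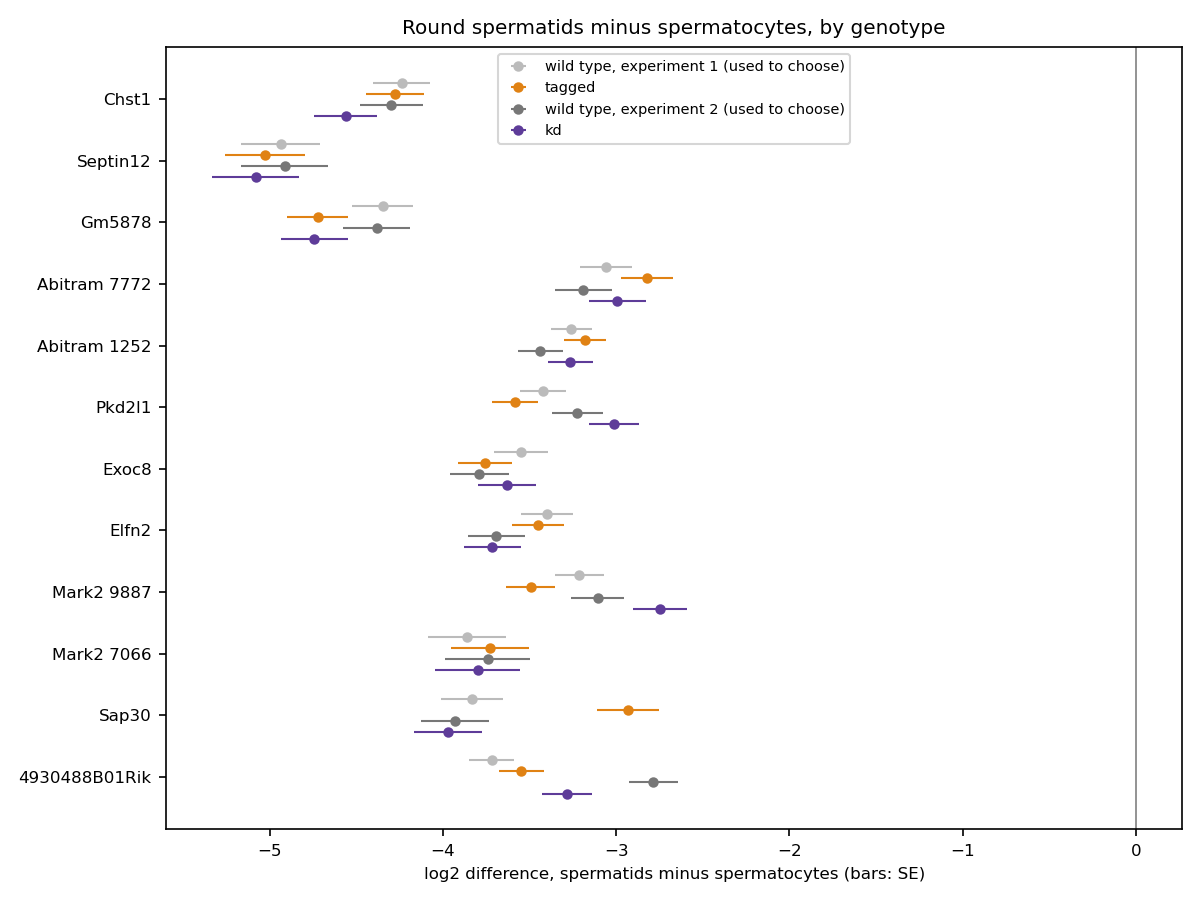
Log2 difference, round spermatids minus spermatocytes (x axis), for each of the 12 probes (y axis, the digits after Abitram and Mark2 being the last of the probe name) in the wild types of both experiments (grey), tagged mice (orange) and kd mice (purple), with standard errors as bars. Sap30 is the probe whose tagged value, -2.93, lies farthest from its kd value, -3.97.

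Whether the loss had the same depth in the 2 altered genotypes was tested as the kd stage difference minus the tagged stage difference. It passed for 3 of 12 probes, where 12.1% of all kept probes passed. Sap30 fell further in kd mice, by -1.04 ± 0.27 (limma adjusted p = 0.0069). Mark2 probe ILMN_2689887 fell less in kd mice, by 0.75 ± 0.21 (adjusted p = 0.013), while the other Mark2 probe differed by -0.07. Pkd2l1 also fell less in kd mice, by 0.57 ± 0.20 (adjusted p = 0.049), and missed the threshold in 22 alternative settings or sets of arrays (adjusted p 0.050 to 0.214). Septin12 differed by -0.05, with a 95% interval from -0.74 to 0.64, and Gm5878 by -0.02, from -0.55 to 0.51. Tagged and kd mice were in different experiments, so genotype and experiment cannot be told apart here, and markers of peritubular and vascular cells (6 of 10 lower in the same contrast) moved with it. Spermatid markers did so too, with 4 of 15 higher and 0 lower and a median of 0.56, beside 0.01 over all kept probes. The part of either in the result was not tested.

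Each altered genotype was next set against the wild type of its own experiment within a cell type. All wild-type arrays in these comparisons had also taken part in choosing the genes. A choice for high wild-type spermatocyte and low wild-type spermatid values favours values that look lower in altered spermatocytes, higher in altered spermatids and a smaller loss, so differences in those directions are given as descriptions. In spermatocytes, 0 of 12 probes passed for tagged against wild-type mice, where 4.76% of all kept probes passed, and 1 of 12 was lower at an unadjusted p under 0.05, where 5% of all kept probes were. The 12 differences, tagged minus wild type, ran from -0.40 (Septin12) to -0.05 (Sap30).

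In round spermatids, 3 of 12 probes passed for tagged against wild-type mice, where 15.5% of all kept probes passed; 1 was higher and 2 were lower, beside 9.22% and 6.26% of all kept probes. Sap30 was higher in tagged spermatids. It read 8.27 to 8.92 (median 8.53) there and 7.50 to 7.80 (median 7.75) in wild-type spermatids, so each of the 6 tagged arrays lay above each of the 6 wild-type arrays. The difference was 0.85 ± 0.18 (limma adjusted p = 3.7e-04), and in spermatocytes the same pair of genotypes differed by -0.05. Higher spermatid values are the direction the choice favours, so this difference is a description and its p-value is not read as support. In the same contrast 3 of 10 peritubular and vascular markers were higher (median of the 10, 0.32, and up to 1.08), and their part in the result was not tested.

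Mark2 probe ILMN_2689887 was lower in tagged spermatids, at 8.16 to 8.72 (median 8.50) against 8.80 to 9.25 (median 9.08), with no overlap and a difference of -0.55 ± 0.14 (limma adjusted p = 0.0034). The other Mark2 probe differed by -0.20 (adjusted p = 0.64). Gm5878 was lower too, at 6.16 to 6.56 (median 6.51) against 6.62 to 7.14 (median 7.11), a difference of -0.57 ± 0.18 (limma adjusted p = 0.020). Without tagged spermatid replicate 2, its lowest array, Gm5878 differed by -0.52 (adjusted p = 0.056). Lower without overlap were 2 of 12 probes, where 3.52% of all kept probes were. Arrays of these groups that shared a replicate number deviated together, and with the replicate number as a block 5 of 12 probes passed, adding Pkd2l1 (-0.33) and Exoc8 (-0.38), each at an adjusted p of 0.0497. The share of all kept probes that passed with this block is not given here, so the count is not read as a trait of the 12.

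Whether the loss itself differed between tagged and wild-type mice was tested as the difference of the stage differences, and passed for 1 of 12 probes, where 2.48% of all kept probes passed. That probe was Sap30, at 0.90 ± 0.25 (limma adjusted p = 0.041). A smaller loss is the direction the choice favours, so nothing is read from this count or p-value. Sap30 missed the threshold in 21 alternatives, of which 15 left out a single array, with adjusted p from 0.051 to 0.135. Without the 4 spermatocyte arrays with most spermatid marker signal, described below, the Sap30 value was 0.84. That value too rests on wild-type arrays that took part in the choice.

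In kd mice, 1 of 12 probes differed from wild type in spermatocytes, where 1.5% of all kept probes did. 4930488B01Rik read 8.18, 8.11, 7.89, 7.91 and 7.88 in kd spermatocytes and 7.19, 7.57, 7.43, 6.96 and 7.50 in wild-type spermatocytes of experiment 2. Every kd array was above every wild-type array, with a difference of 0.67 ± 0.14 (limma adjusted p = 0.0044). In the same contrast 4 of 10 peritubular and vascular markers were higher (median of the 10, 0.69, and up to 1.88), as was 1 of 6 Sertoli cell markers, and their part in the result was not tested. In experiment 1 the same probe read 8.07 to 8.66 in wild-type spermatocytes, above all the wild-type arrays of experiment 2.

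Pnmal1, for which 4930488B01Rik is listed as a synonym, has a probe of its own that was not among the 12. Named here after its values were seen, it read 8.32, 8.69, 8.16, 7.75 and 8.72 in kd spermatocytes and 5.35, 7.65, 5.10, 4.85 and 5.48 in wild-type spermatocytes of experiment 2. The difference was 2.64 ± 0.29, and wild-type replicate 2 stood nearest to the kd arrays. That error comes from one spread shared by all 8 groups. The standard deviation was 1.12 in these wild-type arrays and 0.40 in the kd arrays, so the error understates the spread of this pair. No p-value is given for a probe named in this way. In experiment 1 its wild-type spermatocytes read 7.79 to 8.71. Both probes thus had their low spermatocyte values in the wild type of experiment 2.

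In kd round spermatids, 0 of 12 probes passed limma's test against wild type, where 1.5% of all kept probes passed, and 1 of 12 was lower at an unadjusted p under 0.05, where 5.37% of all kept probes were. That probe was Chst1, with a difference of -0.38, and Gm5878 did not reach that level. Gm5878 read 7.33, 7.63, 7.24, 6.87 and 7.17 in wild-type spermatids of experiment 2 against the kd values above, a difference of -0.37 ± 0.19. Without kd spermatid replicate 2, which read 8.12, it differed by -0.68 and passed (adjusted p = 0.0063). By Dixon's criterion for a single array far from the rest, that array did not stand out for Gm5878, so this pass is not read as support. The difference of stage differences between kd and wild-type mice passed for 0 of 12 probes, where 0.0487% of all kept probes passed. At an unadjusted p under 0.05, 1 was lower, where 1.91% of all kept probes were. That probe, 4930488B01Rik, was above background on 0 of 5 wild-type and 1 of 5 kd spermatid arrays, so this contrast restates its spermatocyte difference.

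**Figure D3:**
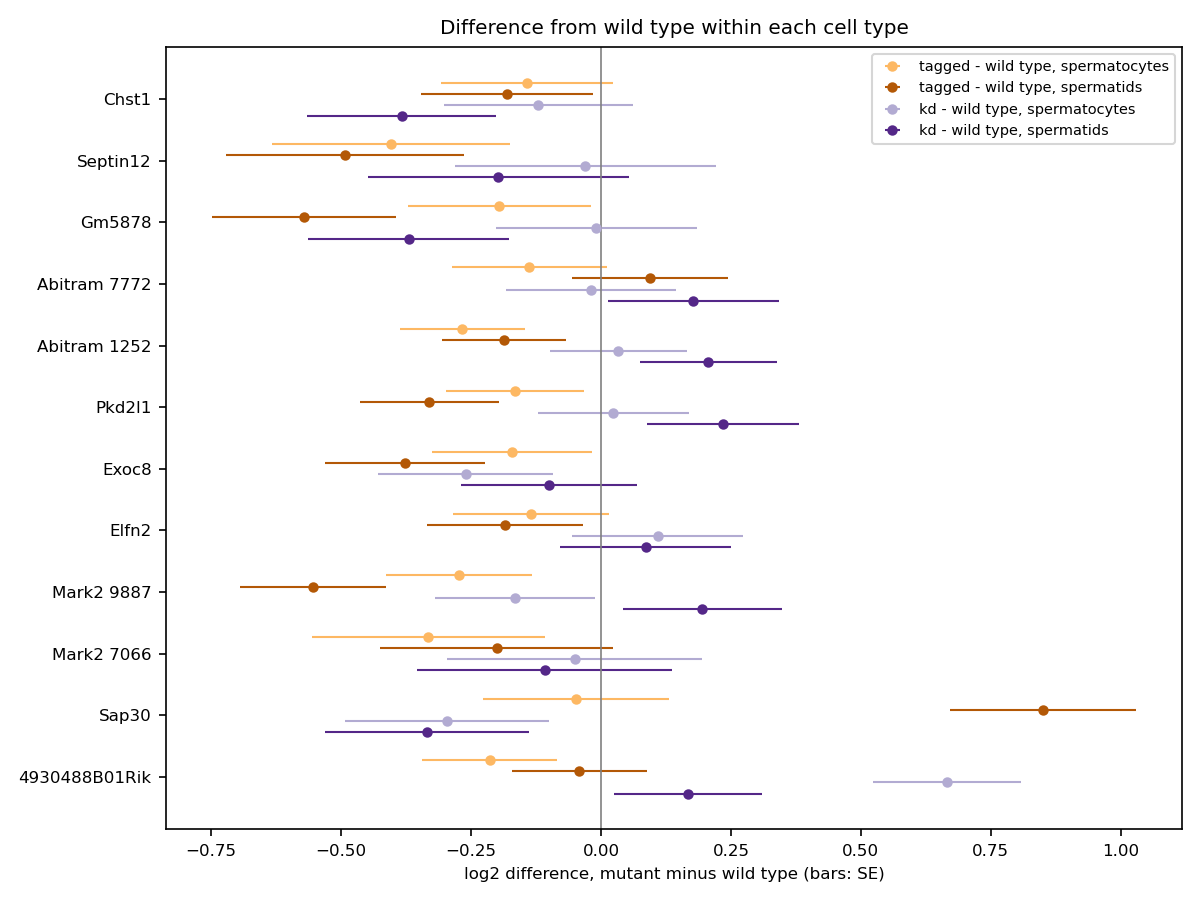
Log2 difference, altered genotype minus wild type of the same experiment (x axis), for the 12 probes (y axis) in spermatocytes (pale) and round spermatids (dark), tagged in orange and kd in purple, with standard errors as bars. Sap30 in tagged spermatids lies at 0.85 and 4930488B01Rik in kd spermatocytes at 0.67.

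The arrays were checked against markers of the cell types. Median raw intensity ran from 91.4 to 119 and 15997 to 19348 probes were above background per array. Spermatid markers were higher in spermatids for 14 of 15 measured genes in tagged and 13 of 15 in kd mice, and meiotic markers were lower for 8 and 7 of 12 and higher for 2 of 12 in each. Their mean spermatid marker signal was 12.3 to 12.8 on spermatid arrays and 10.5 to 12.5 on spermatocyte arrays. Wild-type replicate 1 (12.47) and tagged replicates 1 (12.24) and 2 (12.04) of experiment 1 and kd replicate 1 (11.69) were the highest among spermatocytes of their genotypes. Without these 4 arrays all 12 probes still passed as lower in tagged and in kd mice, Sap30 at -3.19 and -4.09 and Septin12 at -4.85 and -5.04.

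In experiment 1 the spermatocyte arrays with more spermatid marker signal had lower means of the 12 probes. Tagged replicates 1 to 3, with marker means of 12.24, 12.04 and 11.58, had means of the 12 probes of 9.98, 9.91 and 10.05, below 10.18 to 10.59 in replicates 4 to 6, whose marker means were 10.73 to 11.37. Wild-type replicates 1 to 3 (12.47, 11.62 and 11.60) likewise had 10.18, 10.18 and 10.27, below 10.47 to 10.56 in the other 3 (10.61 to 11.06). Kd replicate 1 had the lowest mean of its group, 10.46, and the lowest reading for 7 of 12 probes. Single probes differed in this. In tagged replicates 1 and 2 Sap30 was below its 11.61 to 12.02 in the other 4, the lower of them at 10.97, and Chst1 read 11.32 and 11.14, also below the others. Septin12 read 10.86 and 10.59 in the same arrays, above 9.91 to 10.11 in replicates 3 to 5, while replicate 6, with the least spermatid marker signal of the group, read 10.77. In wild-type replicate 1 of experiment 1, Septin12 (11.60) was the highest of its group and Sap30 (10.58) the lowest. The part of spermatid RNA in these values was not tested.

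Leydig cell markers, of the testosterone-producing cells between the tubules, moved with the 12 probes. Of 7 listed markers 4 were measured and all 4 were lower in spermatids of both genotypes, Cyp17a1 by -4.40 and -4.40, Insl3 by -3.72 and -3.41, Cyp11a1 by -2.03 and -2.07, and Star by -0.60 and -0.52. Their mean signal per array was 8.47 to 9.92 in spermatocytes and 5.97 to 7.29 in spermatids. Wild-type spermatocyte replicates 1 and 2 of experiment 2 had Leydig means of 9.92 and 9.64 against 8.51 to 8.80 in replicates 3 to 5. On the same arrays the mean of the 12 probes was 10.59 and 10.62 against 10.56 to 10.63. The other spermatocyte groups varied in this. Tagged replicate 1 had the most Leydig signal of its group (9.58) and a mean of 9.98, in a group of 9.91 to 10.59. Wild-type replicate 3 of experiment 1 (9.42) had 10.27, in a group of 10.18 to 10.56. Kd replicate 2 (9.70) had 10.68, the highest of its group. In spermatids of 3 groups the arrays with most Leydig signal had higher means of the 12 probes. Kd replicates 1 and 2 (Leydig means 7.17 and 7.12) had 6.94 and 7.33 against 6.58 to 6.71 in the others (5.97 to 6.93). Wild-type replicates 1 and 2 of experiment 2 (7.16 and 6.87) had 7.06 and 6.95 against 6.73 to 6.88 (6.12 to 6.45). Tagged replicates 1 and 3 (6.99 and 6.94) had 6.55 and 6.56 against 6.28 to 6.48 (5.98 to 6.38). In experiment 1 wild-type spermatids, replicates 1 to 3 (7.06 to 7.29) had 6.55 to 6.71 and the others (6.42 to 6.76) had 6.62 to 6.67. Among the 5 measured macrophage and blood markers, 3 were higher in tagged spermatids and 4 in kd spermatids. Sertoli cell markers were higher for 2 and lower for 1 of 6 in tagged mice, and lower for 1 of 6 in kd mice. Peritubular and vascular markers were higher for 5 and lower for 1 of 10 in tagged mice (-1.11 to 3.15). In kd mice 2 of these 10 were higher and 4 lower (-2.42 to 2.25). Spermatogonial markers were higher for 2 of 6 in tagged and 1 of 6 in kd mice, and lower for 0 in each. The part of all these markers in the results was not tested.

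**Figure D4:**
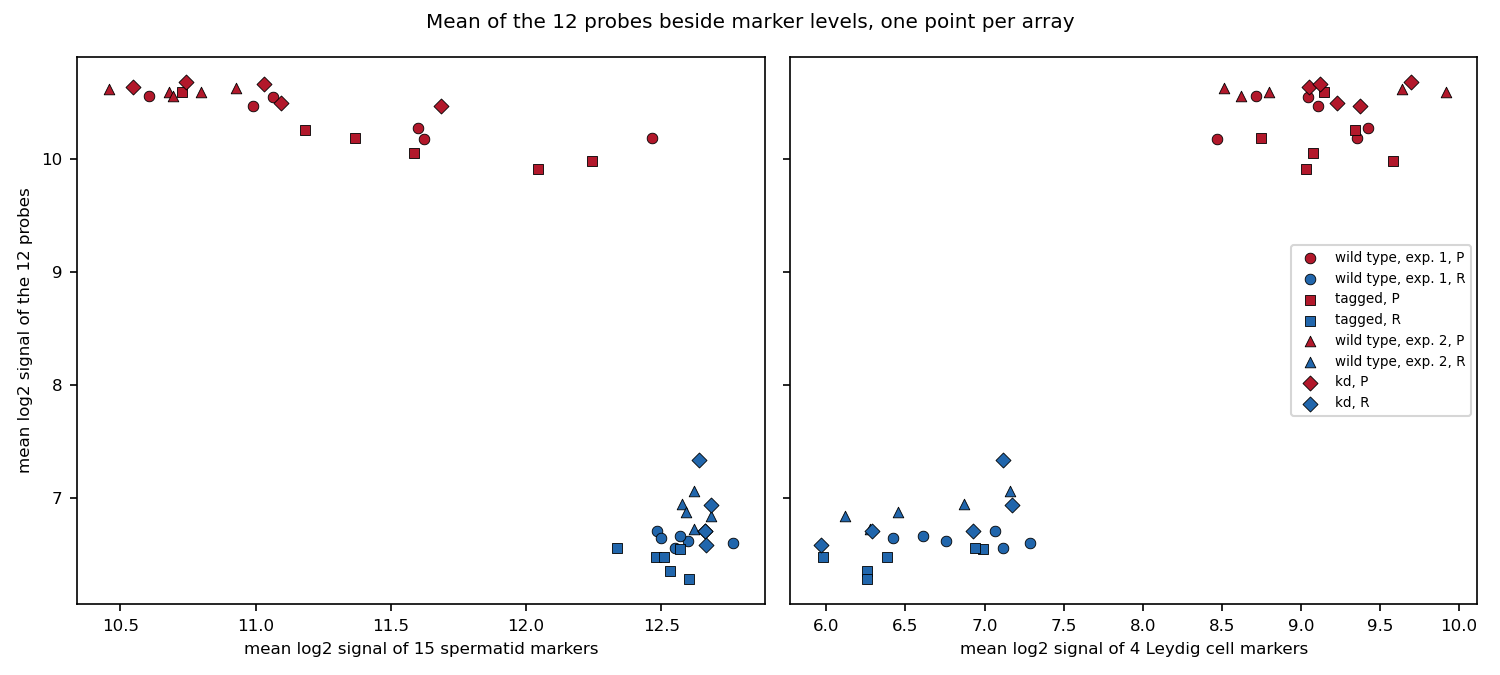
Mean log2 signal of the 12 probes on each of 44 arrays (y axis) against the mean of 15 spermatid markers (left) and of 4 Leydig cell markers (right) on the same array (x axes, log2 signal); red points are spermatocytes, blue points round spermatids, and shapes are genotypes. Spermatocyte arrays lie between 9.91 and 10.7 on the y axis, and the lowest of them, tagged replicate 2 at 9.91, has a spermatid marker mean of 12.04.

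Across the 44 arrays the 12 probes shared one profile, with Pearson r between 0.954 and 0.996 against the mean of their standardized profiles. The points are arrays of 2 cell types, and the difference between these enters r. Abitram probe ILMN_1257772, at 0.954, was the least alike, and it was also brighter in experiment 2 (spermatocyte means 9.28 in wild type and 9.26 in kd) than in experiment 1 (8.08 and 7.94 in tagged). Chst1 was the most alike, at 0.996. The genes most like the mean profile outside the 12 were Piwil1, the germline Argonaute protein of piRNAs, at 0.991, Lypd10 at 0.991, Ankrd10 at 0.990, Fam13c at 0.990 and Mgll, an enzyme that cleaves monoglycerides, at 0.988. Piwil1 differed by -3.80 in tagged and -3.49 in kd mice.

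Relatives of the described genes had smaller differences between the stages, in either direction. Each family is described by its measured members with 1 probe a gene, the described gene included. Of all 22605 kept probes, 13300 passed in tagged and 13329 in kd mice, 6822 and 7441 of them as lower. The counts below are therefore not read as a trait of any family. Of 8 measured septins, 2 rose and 2 fell in tagged mice and 1 rose and 3 fell in kd mice. Septin3 rose by 1.14 and 2.36, whereas Septin2 fell by -0.66 and -0.51 beside the -5.03 and -5.08 of Septin12. Of 8 exocyst genes, 2 rose and 4 fell in tagged mice and 6 fell in kd mice. Exoc2 changed by -1.90 and -1.57, Exoc6b by -1.44 and -0.91 and Exoc1 by -1.27 and -0.89, beside -3.76 and -3.63 of Exoc8.

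Among 15 measured Sin3-HDAC genes, 4 rose and 6 fell in tagged mice and 1 rose and 5 fell in kd mice. Sin3b, a scaffold of the complex, fell by -2.48 and -2.01 and Suds3 by -0.83 and -0.92, while Sap130 rose by 0.91 and 0.67. Of 9 measured PAR polarity genes, 6 rose and 3 fell in tagged mice and 3 rose and 3 fell in kd mice. Prkcz, an atypical protein kinase C, rose by 1.43 and 1.74 and Stk11, an upstream kinase of the Mark family, fell by -0.50 and -0.61. Pard3 rose in tagged mice (1.82) and had a value of 0.20 in kd mice that did not pass.

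Of 6 measured polycystin genes, 3 rose and 2 fell in tagged mice and 2 rose and 2 fell in kd mice. Pkd1l3 rose by 1.49 and 2.06 and Pkd2l2 by 0.78 and 0.61, against the loss of Pkd2l1. Among 4 measured carbohydrate sulfotransferases, 3 fell in each genotype, Chst15 by -0.95 and -1.22 and Chst13 by -0.28 and -0.45 besides Chst1. Elfn1, the closest relative of Elfn2, rose by 1.37 and 1.34, and the third measured gene of that list, Lrfn2, did not pass. In 7 of the 7 families the described gene had the lowest value of the measured members in both genotypes, having been chosen for a large wild-type loss.

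**Figure D5:**
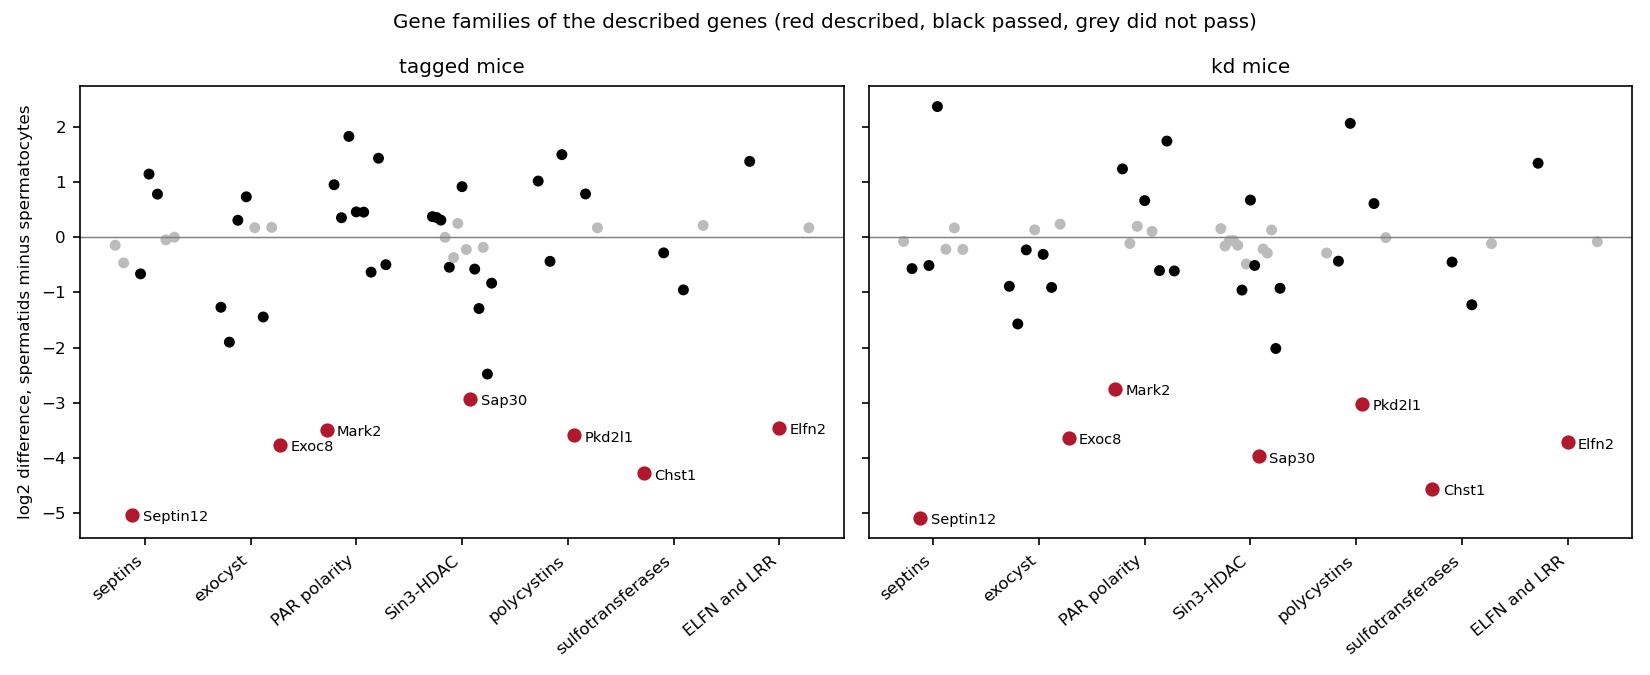
Log2 difference, round spermatids minus spermatocytes (y axis), of each measured gene (points) in 7 gene families (x axis) in tagged mice (left) and kd mice (right); red points are the described genes, black points passed limma's test and grey points did not. The described genes lie between -2.75 and -5.08 and the other genes above -2.5.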

How the data were processed

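The 10 genes, their gene families and the marker lists were chosen with earlier results of these data known. Per the file headers, the deposited raw table gives for every array a probe's average bead intensity and a detection p value, without normalization. A second deposited file holds intensities that, judged from their values, the authors had quantile normalized; it served as an alternative. Software and scanner settings behind both are not stated in those headers.

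From these intensities, function neqc of limma 3.58.1 (R 4.3.3) made log2 values: normexp background correction using detection p values, an offset of 16 and quantile normalization. Offsets and quantile normalization shrink large differences of dim probes. Probes with a detection p under 0.05 on at least 5 arrays were kept. A model of 8 group means was fitted to all 44 arrays, with limma's moderated two-sided test on each probe, Benjamini-Hochberg adjustment over 22605 probes and a threshold of 0.05. Simulated data with known changes were used to test the fit. Folds against groups with no array above background are bounds.

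Genes were named by rule: the 10 genes with all probes, up to 4 members of each family with the smallest p, the 5 genes most like the mean profile and the 5 largest other wild-type differences. Probe genes came from the platform annotation, with symbols updated through gene IDs to RefSeq GRCm38.p6. Of the array's probes, 34885 had 1 gene symbol, 18 had several and 10378 had none listed. Same-numbered wild-type and tagged arrays deviated together in 6 of 6 pairs (r 0.21 to 0.84 in spermatocytes, 0.15 to 0.39 in spermatids), which is the source of the pairing. Only 3 of 6 wild-type spermatocyte and 4 of 6 wild-type spermatid arrays correlated best with the tagged array of their own number. Wild-type arrays deviated together across stages in 6 of 6 and 5 of 5 pairs, where 5 of 6 and 5 of 5 correlated best with their own number. The alternatives were the deposited normalized values, median centring, cyclic loess, other filters, an offset of 50, array weights, fewer arrays, 1 probe per gene, a replicate block and a marker covariate. The number of arrays and the signal over background limit the precision.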

Additional observations from a re-analysis of the deposited data

Results flagged for a closer look

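Of 96 groups of 5 or 6 arrays tested for a single array far from the rest by Dixon's criterion, 6 had one, and chance gives about 1 in 20 such groups. Wild-type spermatocyte replicate 1 of experiment 1 stood out for a pair of probes, high for Septin12 (11.60, next array 10.73) and low for Sap30 (10.58, next array 11.48). Kd spermatocyte replicate 1 was low for Sap30 (11.18, next array 11.77) and for Chst1 (11.81, next array 12.13). Kd spermatid replicate 2 was high for Exoc8 (7.77, next array 7.31). Wild-type spermatocyte replicate 5 of experiment 2 was high for the Abitram probe ILMN_3051252 (10.88, next array 10.72). Wild-type spermatocyte replicate 1 and kd spermatocyte replicate 1 also had the highest spermatid marker means of their groups, 12.47 and 11.69 over 15 genes, and the part of this in the values above was not tested.

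For the stage difference between genotypes, a test of the difference itself passed in 4 cases. Between kd and tagged mice these were Sap30 (-1.04), Mark2 probe ILMN_2689887 (0.75) and Pkd2l1 (0.57). Between tagged and wild-type mice it was Sap30 (0.90), in the direction that choosing genes for a large wild-type loss favours. That case is listed as a description and nothing is read from it.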

How the results depend on the processing

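For the single probes called in any comparison, 32 results were recomputed in 752 alternatives: 706 kept direction and side of the threshold, 46 kept direction but no longer passed, and 0 reversed. The 46 belong to Pkd2l1 between kd and tagged stage differences (22), Sap30 between tagged and wild-type stage differences (21) and Gm5878 in tagged spermatids (3, values -0.32 to -0.54 and adjusted p 0.056 to 0.089). All 12 probes, or the 10 tested with 1 probe per gene, passed as lower in tagged and kd mice under every alternative run. Their size moved by over 1.5 times for 9 tagged and 6 kd values with the deposited normalized values and for 4 and 3 with an offset of 50, which made Gm5878 the largest (-4.27 and -4.37). For tagged against wild-type spermatids, 5 probes passed with the replicate block, with the compared groups alone and with array weights. Leaving out single arrays gave 2 to 4, where 3078 to 3599 of all kept probes passed. No all-probe share is set beside the counts of 5, so they are not read as a trait of the 12. Exoc8 passed in each of those settings, without the 4 spermatocyte arrays with most spermatid marker signal (-0.38, limma adjusted p 0.030) and with the marker covariate (-0.42, adjusted p 0.0045). Septin12 passed with the compared groups alone (-0.49, adjusted p 0.043). For the tagged against wild-type stage difference, 0 passed with the deposited normalized values, median centring, the 22-array filter, no filter, an offset of 50 or the compared groups alone, and 0 to 1 when leaving out single arrays. For kd against wild-type spermatids, 1 passed with array weights (Gm5878, -0.51, adjusted p 0.041), and the same gene passed without kd spermatid replicate 2, the range when leaving out single arrays being 0 to 1. Leaving out single arrays gave 2 to 3 calls between kd and tagged stage differences. With the deposited normalized values and with an offset of 50, Abitram probe ILMN_1257772 also passed there (-0.63 and -0.52). The replicate block changed no other call among the 12 probes; over all probes it moved calls from 1077 to 1621 in tagged spermatocytes, and, where not every same-numbered pair correlated above 0.1 (2 of 5 and 1 of 5 pairs between kd and wild-type spermatocytes and spermatids, 5 of 6 tagged and 4 of 5 kd pairs across stages did), from 340 to 897 and 736 in kd spermatocytes and spermatids, from 2729 to 4451 between kd and tagged stage differences and from 11 to 21 between kd and wild-type ones. Other all-probe counts that moved over 1.5 times were tagged spermatocytes with the compared groups alone (296), the marker covariate (1809) or without experiment 1 wild-type replicate 1 (1786), tagged spermatids with the covariate (from 3498 to 5294), and kd spermatocytes with loess (542), groups alone (177), weights (769) or without kd replicate 1 (222). Kd spermatids moved with weights (1073), the covariate (674) and without the 4 spermatocyte arrays with most spermatid marker signal (528). The tagged stage difference moved from 560 with median centring (268), loess (313), the 22-array filter (228), groups alone (332) and weights (847). The kd against wild-type stage difference gave 2 with the 22-array filter, 23 with weights and 17 without those 4 arrays. With 1 probe per gene, fewer were tested, and the counts were 7588 and 7591 for the tagged and kd stage differences, 1479 between them, 661 and 1984 in tagged spermatocytes and spermatids, 191 in kd spermatocytes, and 306 and 6 for the tagged and kd against wild-type stage differences. Median centring moved the all-probe median of the stage differences to -0.11 and -0.16. A chip block could not be run because the headers name no chip. The cause of these changes was not tested.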
